A study of Rattus norvegicus with 12 samples.

Results

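The synaptotagmin genes of the rat ovary were examined in 12 RNA-seq libraries. The 10 genes Syt1, Syt4, Syt5, Syt7, Syt9, Syt11, Syt12, Syt13, Syt15 and Syt17 were taken by name from the 19730 genes of the deposited expression table, and all 10 were found. The family was chosen by the FPKM of Syt13, which was strongly lower in PCOS than in control ovaries, so every value of Syt13, and the differences of the other 9 members between the PCOS and control groups, are given as a description, the latter with a count beside the background only. Each library came from the whole ovary of 1 female wild type Sprague Dawley rat at postnatal week 15, with 4 rats in each of 3 groups. Control rats received no treatment and standard food. PCOS rats received letrozole, an inhibitor of the aromatase that makes estrogens from androgens, together with a high-fat diet (HFD) for 30 days, as a model of polycystic ovary syndrome (PCOS). PCOS-MV rats received the same and then mogroside V (MV), a triterpene glycoside of the fruit of Siraitia grosvenorii, by gavage for 30 days. All 12 rats thus shared strain, sex and genotype, and the methods of the study name no gavage of vehicle for the PCOS group, so gavage and MV cannot be told apart. Since each ovary was sequenced as a whole, fewer cells of a type and less RNA per cell cannot be told apart in any value given here.

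Synaptotagmins are membrane proteins with paired C2 domains that bind phospholipids and SNARE proteins, the proteins that pull a vesicle and its target membrane together. Some members bind calcium through these domains and trigger the release of vesicle contents when calcium rises, whereas others bind calcium weakly or not at all and act in vesicle traffic. They are best known from neurons and endocrine cells, and in the ovary regulated secretion serves among others the cortical granules of the oocyte.

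Expression was measured as FPKM, a read abundance scaled to transcript length and to the size of the library, which allows levels of different genes to be set side by side. Differences between groups were computed as log2(FPKM + 1), a scale that shrinks the differences of weakly expressed genes. A library held 17576 to 18247 detected genes (FPKM above 0), and the correlation of log2(FPKM + 1) between libraries of a group was 0.954 to 0.989. The third control library stood apart from the other control libraries in markers of the ovarian surface and oviduct epithelium, whose 9 measured genes of 11 listed summed to 289 FPKM there and to 35.7 to 54.9 FPKM in the other control libraries. Its smooth muscle markers, 6 of 6 listed, summed to 978 FPKM, against 345 to 509 FPKM in the other control libraries. Syt5, Syt7 and Syt9 were highest in this library, and their differences to control are also given without it. Granulosa and theca cell markers were measured in every group, 10 of 10 and 7 of 7 listed genes.

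Syt13 was by far the most abundant synaptotagmin transcript of the control and PCOS-MV ovaries, and it shared the top of the order with Syt11 in the PCOS ovaries. By mean FPKM the control group ran from Syt13 through Syt11, Syt9, Syt5, Syt7, Syt12, Syt1, Syt15 and Syt17 to Syt4. In this order Syt13 stood clear of Syt11 and Syt17 clear of Syt4, whereas all other neighbours overlapped in their libraries. PCOS libraries placed Syt11 first, overlapping with Syt13, and these were followed by Syt1 and Syt9. Syt1 lay clear of Syt13 and Syt9 clear of Syt7. The lowest Syt1 value (1.806 FPKM) was barely above the highest Syt9 value (1.805 FPKM). Syt7, Syt5, Syt12, Syt17 and Syt15 overlapped from one to the next. The order of the PCOS-MV group was that of the control group for the first 6 genes, and Syt1 stood eighth. There Syt13 was clear of Syt11, Syt11 of Syt9 and Syt17 of Syt4, and the genes between Syt9 and Syt17 overlapped with their neighbours. The levels of all 10 genes are shown by library in the plot of synaptotagmin transcripts.

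**Figure D1:**
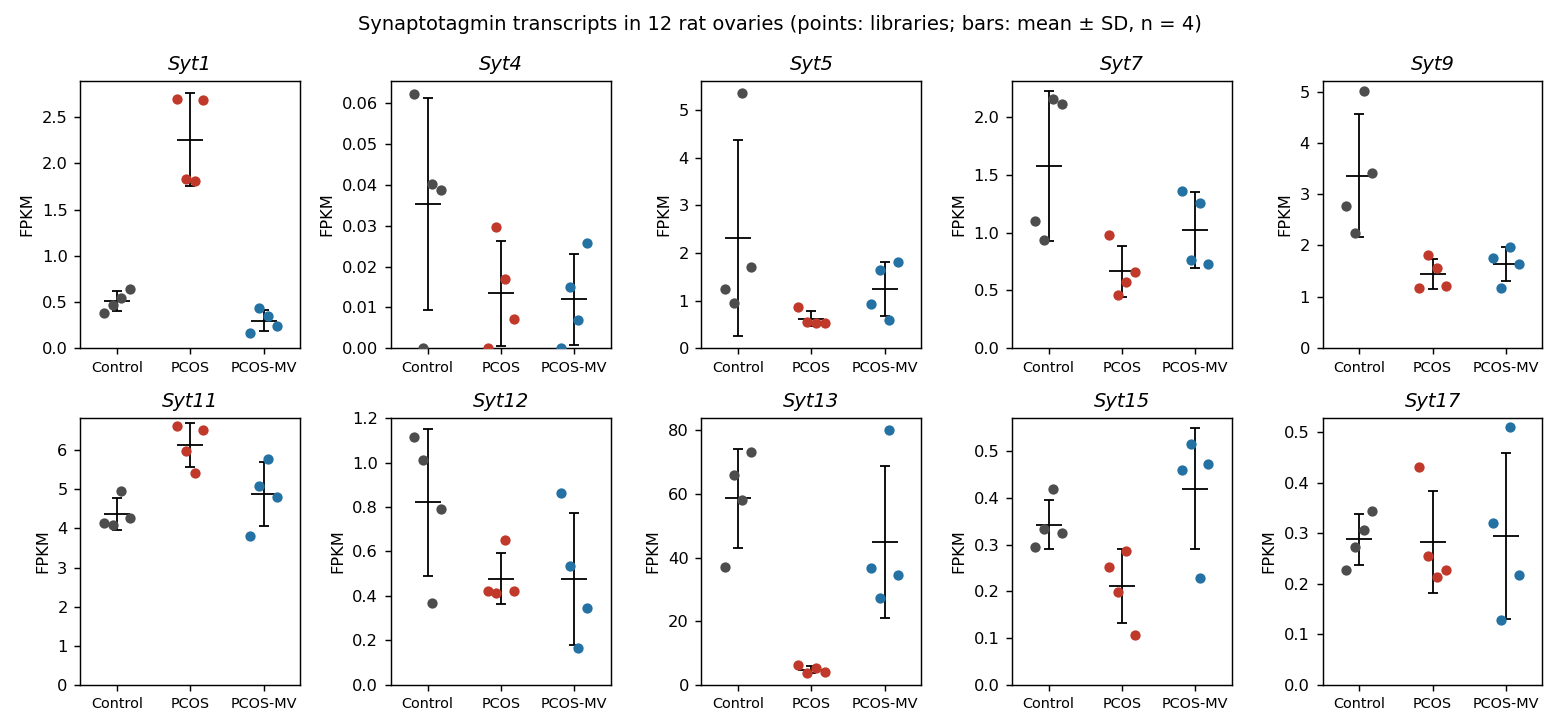
FPKM of the 10 synaptotagmin genes (vertical axes, each with its own scale from 0) in each of the 3 groups. Points are libraries, and bars give the mean and SD of 4 libraries. Syt13 lies between 3.69 and 6.29 FPKM in PCOS and at 27.4 FPKM or more in every other library, whereas Syt1 lies at 1.81 to 2.70 FPKM in PCOS and at 0.644 FPKM or less elsewhere.

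Summed over 17 synaptotagmin genes, the 10 members and 7 others, the transcript level was 50.3 to 89.2 FPKM in control, 16.8 to 21.7 FPKM in PCOS and 40.5 to 93.7 FPKM in PCOS-MV libraries. Without Syt13 the sums were 12.6 to 23.0, 12.8 to 15.4 and 11.9 to 13.6 FPKM, and these ranges overlapped. The upper control value was that of the third control library, the other 3 lying between 12.6 and 16.1 FPKM. Most of the difference between the sums was thus that of Syt13. Syt13 made up 71.7% to 84.0% of the summed FPKM in control, 21.9% to 29.5% in PCOS and 67.8% to 85.5% in PCOS-MV libraries. The share of Syt11 was 4.79% to 8.21%, 29.7% to 36.9% and 6.17% to 12.5%, and that of Syt1 was 0.589% to 0.764%, 9.91% to 15.2% and 0.343% to 1.07%. These shares rest in part on the Syt13 values that chose the family, and they are given as a description.

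**Figure D2:**
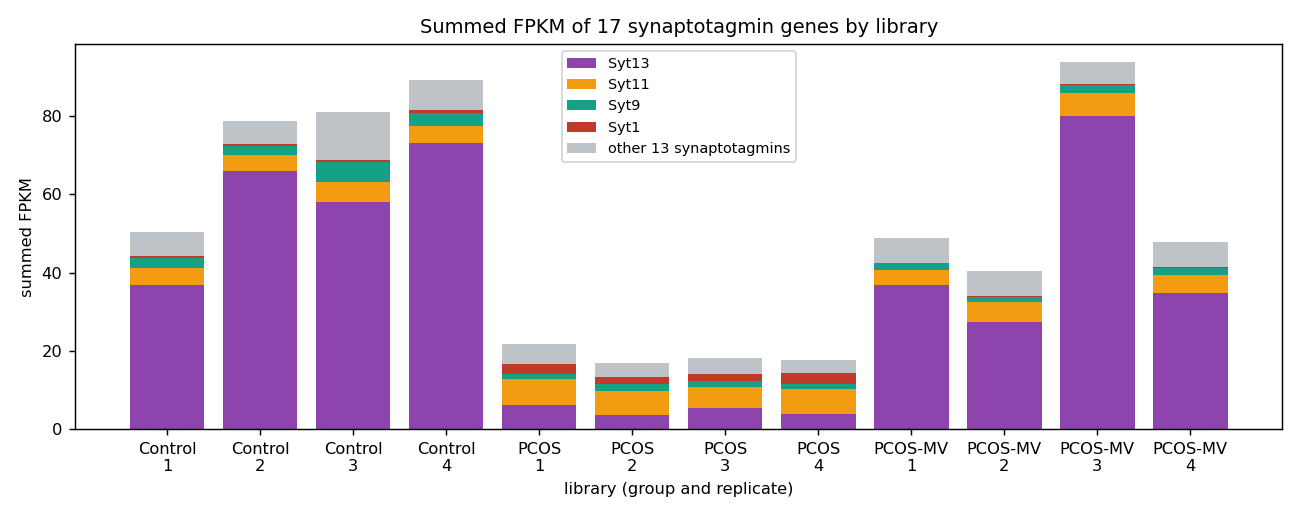
Summed FPKM of 17 synaptotagmin genes (vertical axis) in each of the 12 libraries (horizontal axis), divided into Syt13, Syt11, Syt9, Syt1 and the other 13 genes. Bars reach 50.3 to 89.2 FPKM in control, 16.8 to 21.7 FPKM in PCOS and 40.5 to 93.7 FPKM in PCOS-MV libraries, and the part above Syt13 differs less between libraries.

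Among the members that bind calcium, Syt1 stood out by being high in PCOS ovaries alone. Syt1 is the fast calcium sensor of synaptic vesicle release. Its gene, ENSRNOG00000006426, spans positions 50084060 to 50638798 on the minus strand of chromosome 7 in the coordinates of the deposited table, whose genome build is not given in the sources used here. Its levels were 0.384, 0.463, 0.541 and 0.644 FPKM in the control libraries, 2.70, 1.84, 1.81 and 2.69 FPKM in the PCOS libraries and 0.167, 0.432, 0.348 and 0.240 FPKM in the PCOS-MV libraries. Every PCOS library lay above every other library. The mean FPKM of PCOS was 4.44 times that of control, with a difference of 1.10 ± 0.14 on the log2(FPKM + 1) scale (SE, n = 4 per group). Compared with the PCOS group, Syt1 fell by 1.32 on this scale in the PCOS-MV group (SE 0.13, 95% interval -1.62 to -1.02, adjusted p = 0.000365 by limma, 4 of 4 libraries below every PCOS library). The exact two-sided permutation test gave p = 0.0286, the smallest that 4 against 4 libraries allow. Leaving out each of the 8 libraries in turn kept the adjusted p between 0.000852 and 0.00194.

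The call of Syt1 needs a remark on the filter, since only genes averaging 1 FPKM or more over the 12 libraries were tested. Syt1 had a mean of 1.02 FPKM, which it reached only through the PCOS libraries, the mean of the other 8 being 0.402 FPKM. With no filter, over 19730 genes, the adjusted p was 0.00113. Between PCOS-MV and control the difference of Syt1 was -0.22 (SE 0.14, 95% interval -0.53 to 0.09, adjusted p = 0.657 by limma, exact permutation p = 0.0571), and the libraries overlapped.

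Summed markers of several cell types were higher in PCOS, as Syt1 was, though single markers of each list went the other way. Summed over the 7 of 7 theca cell markers, FPKM was 172 to 233 in control, 1781 to 3371 in PCOS and 144 to 255 in PCOS-MV libraries, with no overlap between PCOS and either other group. In PCOS most of this sum was Cyp17a1 and Insl3. The mean FPKM of Cyp17a1 was 34.6, 1190 and 37.4 in control, PCOS and PCOS-MV, and that of Insl3 was 5.70, 1032 and 7.89. By mean, 5 theca markers were higher and 2 (Hhip and Ptch1) lower in PCOS than in control. The 10 of 10 granulosa cell markers summed to 963 to 1337, 1554 to 2242 and 849 to 1464 FPKM, with 6 higher and 4 (Amh, Hsd17b1, Inhbb and Nr5a2) lower by mean in PCOS than in control. The 10 of 11 oocyte markers summed to 33.2 to 53.8, 74.8 to 82.4 and 34.0 to 49.5 FPKM. Only Kit and Ooep lay above control in every PCOS library, Figla was higher by mean, and the other 7, among them Gdf9, Bmp15, Zp1, Zp2 and Zp3, were lower by mean in PCOS. The 12 of 12 markers of neurons and nerve fibres summed to 28.6 to 57.7, 68.4 to 104 and 25.2 to 49.5 FPKM. In PCOS most of this sum was the tubulin Tubb3, with means of 14.2, 70.5 and 16.8 FPKM in the 3 groups, whereas 9 of the 12 markers, among them Uchl1 at means of 18.7, 10.2 and 14.2 FPKM, were lower by mean in PCOS than in control. Dbh and Th, the enzymes of noradrenaline synthesis that define sympathetic nerves, did not exceed 0.0563 and 0.0805 FPKM in any library. They were at 0 in 4 and 3 of the 4 PCOS libraries and also in some control libraries. Elavl3 and Npy were at 0 in some libraries. The part of these cells in the Syt1 values was not tested.

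Syt9, Syt5 and Syt7, the other calcium sensors, had their highest means in control ovaries. Syt9, a fast sensor related to Syt1 (ENSRNOG00000019613, chromosome 1, 171592797 to 171769780, plus strand), measured 2.77, 2.25, 5.01 and 3.41 FPKM in control, 1.18, 1.81, 1.57 and 1.22 FPKM in PCOS and 1.76, 1.17, 1.97 and 1.64 FPKM in PCOS-MV libraries. Every PCOS and every PCOS-MV library lay below every control library. The log2(FPKM + 1) difference was -0.81 ± 0.19 between PCOS and control, and -0.64 without the third control library. PCOS-MV differed from PCOS by 0.11 (SE 0.13, 95% interval -0.19 to 0.41, adjusted p = 0.577 by limma, exact permutation p = 0.429). Set against control, PCOS-MV differed by -0.70 (SE 0.20, 95% interval -1.15 to -0.24). This missed the threshold by limma (adjusted p = 0.497), the exact permutation test gave its smallest p of 0.0286, and leaving out each library in turn moved the difference between -0.83 and -0.53, the latter without the third control library. The ratio of Syt1 to Syt9 FPKM was 0.108 to 0.206 in control, 1.02 to 2.29 in PCOS and 0.0946 to 0.368 in PCOS-MV libraries.

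Syt5, a calcium sensor found on dense core vesicles (ENSRNOG00000018217, chromosome 1, 72860218 to 72867930, plus strand), measured 1.25, 0.939, 5.36 and 1.70 FPKM in control, 0.859, 0.539, 0.536 and 0.536 FPKM in PCOS and 0.937, 1.64, 0.601 and 1.81 FPKM in PCOS-MV libraries. All PCOS libraries lay below all control libraries, and the high value was that of the third control library, which stood apart in epithelial markers. The difference between PCOS and control was -0.87 ± 0.34 with this library and -0.50 without it. PCOS-MV exceeded PCOS by 0.44 (SE 0.19, 95% interval 0.02 to 0.86), which missed the threshold by limma (adjusted p = 0.115, exact permutation p = 0.0571). Without the third PCOS-MV library, the lowest of its group, the difference was 0.59 with an adjusted p of 0.0272 by limma. PCOS-MV and control libraries overlapped (difference -0.43, 95% interval -1.28 to 0.43, adjusted p = 0.736 by limma), and without the third control library the difference was -0.06.

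Syt7, a sensor of high calcium affinity that acts in slow release and in lysosome exocytosis (ENSRNOG00000026432, chromosome 1, 226435979 to 226493377, plus strand), measured 1.10, 0.940, 2.16 and 2.11 FPKM in control, 0.976, 0.457, 0.573 and 0.656 FPKM in PCOS and 1.36, 0.762, 1.25 and 0.727 FPKM in PCOS-MV libraries. The groups overlapped in all 3 comparisons. Its difference was -0.60 ± 0.20 between PCOS and control, and -0.495 without the third control library. Between PCOS-MV and PCOS it was 0.28 (SE 0.15, 95% interval -0.06 to 0.61, adjusted p = 0.199 by limma, exact permutation p = 0.143). Between PCOS-MV and control the difference was -0.33 (SE 0.21, 95% interval -0.80 to 0.15, adjusted p = 0.663 by limma), and -0.22 without the third control library.

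Syt13, an atypical member that lacks the residues for calcium binding, carried the largest difference of the family (ENSRNOG00000008000, chromosome 3, 81814261 to 81854605, plus strand, 1 transcript in the table). It measured 36.9, 66.0, 58.2 and 73.1 FPKM in control, 6.29, 3.69, 5.38 and 3.88 FPKM in PCOS and 36.8, 27.4, 80.1 and 34.7 FPKM in PCOS-MV libraries. Every PCOS library lay below every library of the other groups, and the PCOS-MV libraries spread widely, with the third above all control libraries. The means were 58.6 ± 15.7, 4.81 ± 1.24 and 44.8 ± 23.9 FPKM (SD, n = 4). Mean FPKM was thus 12.2-fold lower in PCOS than in control and 9.31-fold higher in PCOS-MV than in PCOS. On the log2(FPKM + 1) scale these differences were -3.34 ± 0.23 and 2.88 ± 0.31 (SE), and leaving out each library in turn kept them within -3.54 to -3.22 and 2.56 to 3.07. Both comparisons use the same PCOS libraries. PCOS-MV and control overlapped, with a difference of -0.46 ± 0.34 (95% interval -1.23 to 0.31) that moved between -0.78 and -0.27 when single libraries were left out.

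The summed markers of luteal cells, the steroid-producing cells of the corpus luteum, had the group order of Syt13 by median, but not its order within control. The 8 measured of 9 listed luteal markers, none of them at 0 in any library, summed to 7408 to 8859 FPKM in control, 2299 to 3871 FPKM in PCOS and 4597 to 11099 FPKM in PCOS-MV libraries. The sum was highest in the third PCOS-MV library and lowest in PCOS, as Syt13 was. Within control, the first library had the highest sum (8859 FPKM) and the lowest Syt13 (36.9 FPKM). The fourth control library had the lowest sum (7408 FPKM) and the highest Syt13 (73.1 FPKM). Single markers differed in this. Star, Cyp11a1, Scarb1, Lhcgr and Prlr were highest within control in the first library. Ptgfr and Akr1c3 were lowest within control in that library (45.7 and 833 FPKM), as Syt13 was. Both were highest in the third PCOS-MV library (173 and 4692 FPKM). In 5 of the 8 markers (Star, Cyp11a1, Scarb1, Ptgfr and the gene named Akr1c3) all PCOS libraries lay below all control libraries, whereas Lhcgr lay above control in every PCOS library and Parm1 and Prlr were higher by mean. Endothelial markers, 5 of 6 listed, summed to 89.2 to 113, 57.9 to 72.6 and 79.3 to 105 FPKM, with PCOS again below both other groups and none at 0. Of these 5, Cdh5, Emcn, Kdr and Tek lay below control in every PCOS library, and Vwf lay above. Adipocyte markers, 6 of 6, summed to 15.1 to 64.6, 2.83 to 7.10 and 4.89 to 36.0 FPKM, with overlap between PCOS and PCOS-MV. Cidec and Lep were at 0 in some libraries. All 6 were lower by mean in PCOS than in control. In PCOS-MV most of the sum was Fabp4, with means of 2.15 FPKM in PCOS and 19.7 FPKM in PCOS-MV. The other 5 (Adipoq, Cidec, Lep, Pck1 and Plin1) lay below control in every PCOS-MV library. Of these 5, Cidec and Plin1 were higher and Adipoq, Lep and Pck1 lower by mean in PCOS-MV than in PCOS. The part of these cells in the Syt13 values was not tested.

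Syt11 came second to Syt13 in control and PCOS-MV ovaries and first by mean in PCOS ovaries (ENSRNOG00000020279, chromosome 2, 188112286 to 188138177, minus strand). It belongs with Syt4 to the members that carry a substitution in the first C2 domain and do not bind calcium there. It measured 4.13, 4.08, 4.96 and 4.27 FPKM in control, 6.62, 5.97, 5.41 and 6.52 FPKM in PCOS and 3.81, 5.08, 5.78 and 4.81 FPKM in PCOS-MV libraries. All PCOS libraries lay above all control libraries, and 1 PCOS-MV library reached into the PCOS range. The mean FPKM of PCOS was 1.41 times that of control, with a log2(FPKM + 1) difference of 0.41 ± 0.09. PCOS-MV differed from PCOS by -0.29 (SE 0.12, 95% interval -0.55 to -0.02), which missed the threshold by limma (adjusted p = 0.105, exact permutation p = 0.0571). Without the third PCOS-MV library it was -0.36, with an adjusted p of 0.0499 by limma. From control PCOS-MV differed by 0.12 (SE 0.12, 95% interval -0.15 to 0.40, adjusted p = 0.759 by limma). The ratio of Syt13 to Syt11 FPKM was 8.95 to 17.1 in control, 0.595 to 0.995 in PCOS and 5.41 to 13.9 in PCOS-MV libraries, so that Syt11 exceeded Syt13 in 4 of 4 PCOS libraries and in no other.

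The 4 remaining members stayed below a mean of 1 FPKM and were not among the genes tested, and their differences come from the fit with no filter. Syt12, which does not bind calcium (ENSRNOG00000019306, chromosome 1, 219688451 to 219719272, minus strand), measured 1.12, 1.01, 0.367 and 0.791 FPKM in control, 0.423, 0.415, 0.650 and 0.420 FPKM in PCOS and 0.861, 0.536, 0.168 and 0.344 FPKM in PCOS-MV libraries. The groups overlapped throughout, and PCOS-MV differed from PCOS by -0.02 (adjusted p = 0.966 by limma) and from control by -0.30 (adjusted p = 0.682 by limma). Syt15, likewise independent of calcium (ENSRNOG00000051688, chromosome 16, 10554136 to 10564927, plus strand), measured 0.295, 0.333, 0.418 and 0.325 FPKM in control, 0.253, 0.198, 0.287 and 0.107 FPKM in PCOS and 0.461, 0.516, 0.228 and 0.473 FPKM in PCOS-MV libraries. All PCOS libraries lay below all control libraries, by a difference of -0.15 ± 0.05, and the difference of 0.23 between PCOS-MV and PCOS missed the threshold (adjusted p = 0.0864 by limma, exact permutation p = 0.0857). Syt17, a member without a transmembrane segment (ENSRNOG00000017136, chromosome 1, 188034495 to 188101566, minus strand), ranged from 0.128 to 0.509 FPKM over the 12 libraries, and the groups overlapped. Syt4 (ENSRNOG00000017333, chromosome 18, 24172587 to 24182012, minus strand) did not exceed 0.0624 FPKM, and 1 library of each group was at 0. At such levels differences between groups were not detectable.

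Counted over the family, PCOS and control libraries did not overlap in 6 of the 10 genes, with Syt1 and Syt11 above and Syt5, Syt9, Syt13 and Syt15 below, where 31% of all genes tested did not overlap, 13.8% above and 17.2% below, and 28.9% of the 16636 genes averaging 0.1 FPKM or more did not. Of the 9 genes other than Syt13, 5 were tested and 3 of these (Syt1, Syt9 and Syt11) passed an adjusted p of 0.05 by limma in this comparison, in which 27.4% of all 13430 genes passed. This count is given beside the background only, since the comparison chose the family. Between PCOS-MV and PCOS, where the PCOS libraries are those of the first comparison, 1 of the 5 (Syt1) passed, against 25.7% of all genes. Syt1 was among the 5 only through its PCOS libraries, the control and PCOS-MV libraries averaging 0.402 FPKM. Its calls in both comparisons carry this limit. PCOS-MV and PCOS libraries did not overlap in Syt1, which lay below, and Syt13, which lay above. Of all genes tested 30% did not overlap, 16.7% above and 13.3% below, and 27.5% of those averaging 0.1 FPKM or more did not. Between PCOS-MV and control 0 of the 5 passed by limma, 1 (Syt9) had an unadjusted p under 0.05, and only Syt9 did not overlap. In that comparison 0.00745% of all genes passed, 8.5% had an unadjusted p under 0.05 and 5.1% did not overlap (5.34% of those averaging 0.1 FPKM or more). The median log2(FPKM + 1) difference over all genes tested was -0.03, 0.03 and -0.00 in the 3 comparisons.

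**Figure D3:**
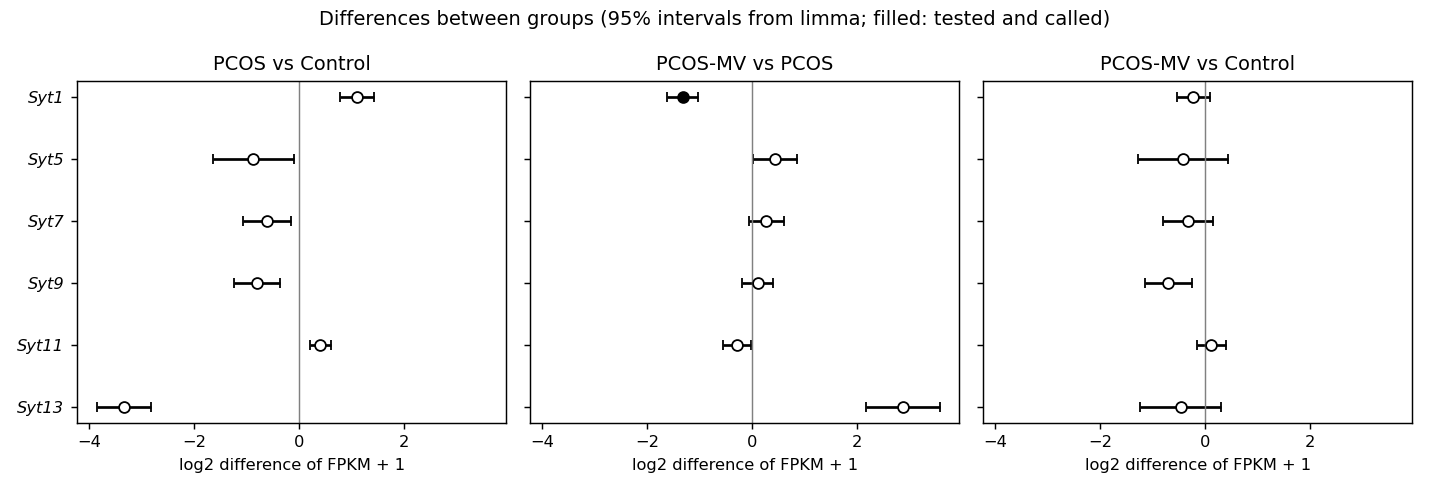
Differences on the log2(FPKM + 1) scale (horizontal axes) of the 6 synaptotagmins averaging 1 FPKM or more, for PCOS vs Control, PCOS-MV vs PCOS and PCOS-MV vs Control. Bars are 95% intervals by limma, and the filled point marks a gene that was tested and passed an adjusted p of 0.05. Syt1 and Syt11 lie to the right of 0 and the other genes to the left of 0 for PCOS vs Control, and only Syt1 is filled, at -1.32 for PCOS-MV vs PCOS.

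Of the 7 synaptotagmins outside the chosen list, Syt14 was the only one averaging 1 FPKM or more. Syt14, a member that does not bind calcium (ENSRNOG00000046139), had means of 1.30 ± 0.595 FPKM in control, 0.582 ± 0.153 FPKM in PCOS and 1.45 ± 0.310 FPKM in PCOS-MV ovaries (SD, n = 4). It rose in PCOS-MV compared with PCOS by 0.63 (SE 0.12, adjusted p = 0.00734 by limma, 4 of 4 libraries above every PCOS library). Its difference of -0.51 between PCOS and control missed the threshold (adjusted p = 0.0789 by limma), though every PCOS library lay below every control library. The highest Syt14 value, 2.15 FPKM, was that of the third control library. Its mean outside PCOS-MV, its highest group, was 0.939 FPKM, and with no filter the adjusted p of its rise was 0.00964 by limma. Means over the 12 libraries of Syt2, Syt3, Syt6, Syt8, Syt10 and Syt16 were 0.592 FPKM or less.

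Genes whose pattern was most like that of Syt13 were sought among 13429 other genes by Pearson's r of log2(FPKM + 1) over the 12 libraries, which include the group differences that chose Syt13. The 4 highest were Sri at 0.994, Tub at 0.991, Elk3 at 0.988 and Lrrc8c at 0.987. Sri encodes the calcium-binding protein sorcin, Elk3 an ETS family transcription factor and Lrrc8c a subunit of volume-regulated anion channels. Sri had means of 131, 53.1 and 118 FPKM in control, PCOS and PCOS-MV, and Lrrc8c had 43.8, 9.72 and 35.5 FPKM. All 4 were lowest in the PCOS libraries and highest within PCOS-MV in the third library, as Syt13 was. When only the deviations from the group means were correlated, the 4 highest were NEWGENE_1306267 at 0.969, Shroom4 at 0.955, Scgb1a1 at 0.945 and Sri at 0.945, so that Sri stood in both lists. Among the synaptotagmins, r over the 12 libraries was highest for Syt14, outside the chosen list, at 0.799 (0.434 for deviations from the group means). It was 0.722 for Syt7, 0.604 for Syt9, 0.521 for Syt5, -0.698 for Syt11 and -0.882 for Syt1. For deviations from the group means the sign was the opposite for Syt1 (0.238), Syt11 (0.361) and Syt5 (-0.202). These r values describe 12 libraries that fall into groups, with no test.

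**Figure D4:**
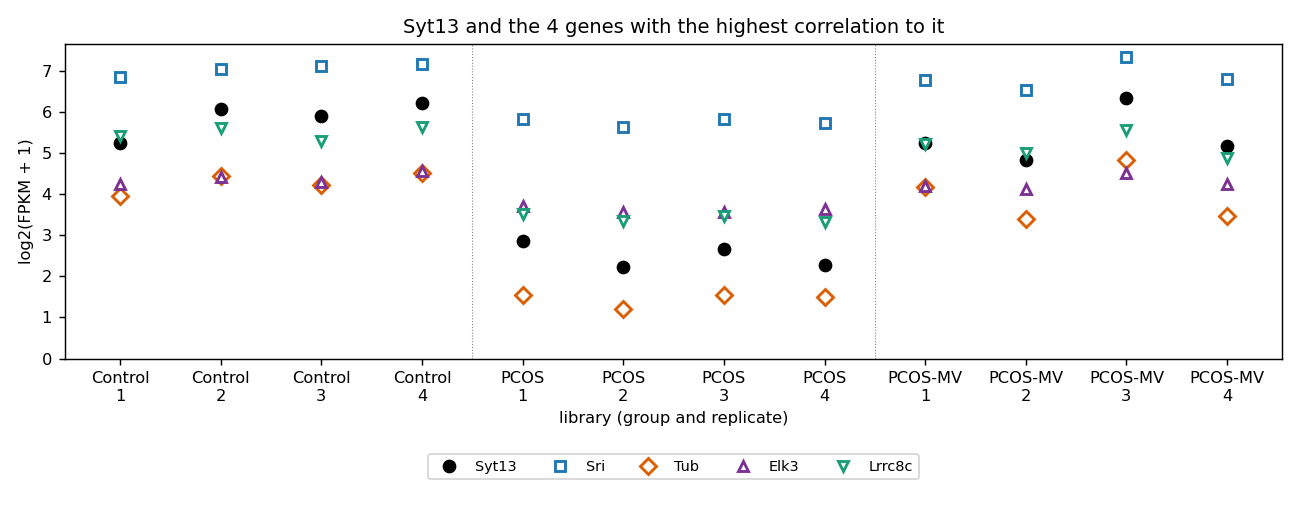
log2(FPKM + 1) (vertical axis) of Syt13 and of Sri, Tub, Elk3 and Lrrc8c in the 12 libraries (horizontal axis, 4 each of control, PCOS and PCOS-MV, in order of their replicate numbers). All 5 genes are lower in the 4 PCOS libraries than in any other, and all 5 peak within PCOS-MV in the third library.

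The other proteins of regulated secretion were described through 9 lists of 106 symbols, of which 104 genes were in the table and 63 were tested. Between PCOS and control 14 rose and 16 fell by limma, which is 47.6% of those tested against 27.4% of all genes (11.9% rising, 15.6% falling), with a median difference of -0.05 against -0.03. Between PCOS-MV and PCOS 14 rose and 8 fell, 34.9% against 25.7% (14.3% rising, 11.4% falling), with a median of 0.05 against 0.03. Between PCOS-MV and control 0 of the 63 passed by limma, against 0.00745% of all genes. The lists were chosen with earlier results of these data known, so these shares are given as a description. Scg2 and Chga reached the filter only through the PCOS libraries, and Syt14 only through the PCOS-MV libraries. Sytl2 was counted under 2 gene identifiers that may share reads. Genes of the same list both rose and fell in 6 of the 9 lists in the first comparison and in 3 in the second. All adjusted p-values of these genes are by limma over 13430 genes, and the first 2 comparisons share the PCOS libraries.

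The target membrane SNAREs, of the plasma membrane and of membranes within the cell, had 3 rises and 3 falls among 14 genes tested between PCOS and control. Between PCOS-MV and PCOS they had 4 rises and 1 fall. Stx4, a syntaxin of the plasma membrane, had means of 20.1, 29.1 and 19.2 FPKM in control, PCOS and PCOS-MV. It rose by 0.51 in PCOS (adjusted p = 0.00188) and fell by 0.58 after MV administration (adjusted p = 0.00367). Stx11, a syntaxin of immune cell secretion, went the other way at means of 2.02, 1.08 and 3.42 FPKM (-0.53, adjusted p = 0.0209, then 1.07, adjusted p = 0.00249). Stx2 and Stx12 fell in PCOS and rose after MV administration, by between 0.27 and 0.47 in size. Of the 7 vesicle SNAREs, 1 rose and 3 fell between PCOS and control. Vamp8, of granule and late endosome fusion, had means of 41.5, 29.1 and 39.3 FPKM, a fall of 0.52 (adjusted p = 0.0235) and then a rise of 0.44 (adjusted p = 0.0431). Vamp7 fell and rose likewise, Vamp3 fell in PCOS, and Vamp2, the partner of Syt1 in synaptic vesicles, rose in PCOS by 0.26 (adjusted p = 0.0236) with means of 26.1, 31.6 and 28.4 FPKM.

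Among the 15 tested regulators of SNAREs, 3 rose and 3 fell between PCOS and control, and 2 rose and 3 fell between PCOS-MV and PCOS. Cplx2, a complexin that clamps and promotes fusion together with Syt1, had means of 11.9, 29.2 and 12.5 FPKM, with a rise of 1.19 in PCOS (adjusted p = 0.00366) and a fall of 1.12 after MV administration (adjusted p = 0.00636). Unc13d, a priming factor of granule release, fell by 1.38 in PCOS (means 6.78 and 1.98 FPKM, adjusted p = 2.12e-05), and its PCOS-MV mean of 4.21 FPKM did not differ from PCOS past the threshold (adjusted p = 0.145). Unc13b, a priming factor of the same family, fell by 0.65 in PCOS (adjusted p = 0.0172) and rose by 0.71 after MV administration (adjusted p = 0.00951). Cadps2, which primes dense core vesicles, fell by 0.60 after MV administration (adjusted p = 0.00795). Of the 4 secretory Rab GTPases tested, Rab3a rose by 0.96 in PCOS-MV compared with PCOS (means 10.8 and 23.4 FPKM, adjusted p = 0.0353), and none passed between PCOS and control.

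Relatives of synaptotagmins with tandem C2 domains included 10 tested genes, of which 4 rose and 2 fell between PCOS and control and 2 fell between PCOS-MV and PCOS. Doc2b, a calcium sensor of spontaneous and slow release, rose by 1.37 in PCOS (means 4.86 and 14.2 FPKM, adjusted p = 0.000233), and its later difference missed the threshold (adjusted p = 0.0543). The Rab27 effectors Sytl1 and Sytl4 rose in PCOS by 0.94 and 0.51 (adjusted p = 0.0121 and 0.00325) and fell after MV administration by 0.94 and 0.61 (adjusted p = 0.0122 and 0.00254). Sytl2 appears under 2 gene identifiers that may share reads, ENSRNOG00000030776 and ENSRNOG00000049878, and both fell in PCOS (adjusted p = 0.0469 and 0.00498). The ferlins, larger C2 domain proteins of membrane repair and fusion, had 2 tested genes, Dysf and Myof. Dysf had means of 10.4, 3.95 and 8.71 FPKM, a fall of 1.20 in PCOS (adjusted p = 0.000136) and a rise of 0.98 after MV administration (adjusted p = 0.000242). Myof had means of 16.8, 9.16 and 17.3 FPKM, a fall of 0.79 (adjusted p = 0.00298) and a rise of 0.81 (adjusted p = 0.0105).

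Dense core granule and synaptic vesicle genes differed as well. Of the 5 dense core granule genes tested, 2 rose and 1 fell between PCOS and control. Scg2, which encodes the granule protein secretogranin II, ranged from 0.155 to 0.627 FPKM in control, 6.19 to 9.57 FPKM in PCOS and 0.204 to 1.03 FPKM in PCOS-MV libraries (adjusted p = 1.48e-05 and 0.000128). It passed the filter only through the PCOS libraries, its mean in the other 8 being 0.531 FPKM, and with no filter the adjusted p was 0.000101 and 0.000746. Scg3, of the same family, rose by 0.85 in PCOS (adjusted p = 0.00384) and fell by 0.84 after MV administration (adjusted p = 0.0046). Cpe, the carboxypeptidase that trims prohormones, had the opposite order, with means of 14.2, 5.35 and 14.2 FPKM (-1.25, adjusted p = 0.00137, then 1.25, adjusted p = 0.00313). Of the 5 synaptic vesicle genes tested, Syngr1 fell by 0.92 in PCOS (means 19.4 and 9.81 FPKM, adjusted p = 0.000884) and rose by 0.82 after MV administration (adjusted p = 0.00168). The synapsins differed from each other between PCOS and control, with Syn1 rising by 0.36 (adjusted p = 0.0282) and Syn2 falling by 0.95 (adjusted p = 0.0126). The summed theca, granulosa, oocyte and luteal markers differed between the same groups, with single markers against the sum as given above, and their part in these differences was not tested.

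**Figure D5:**
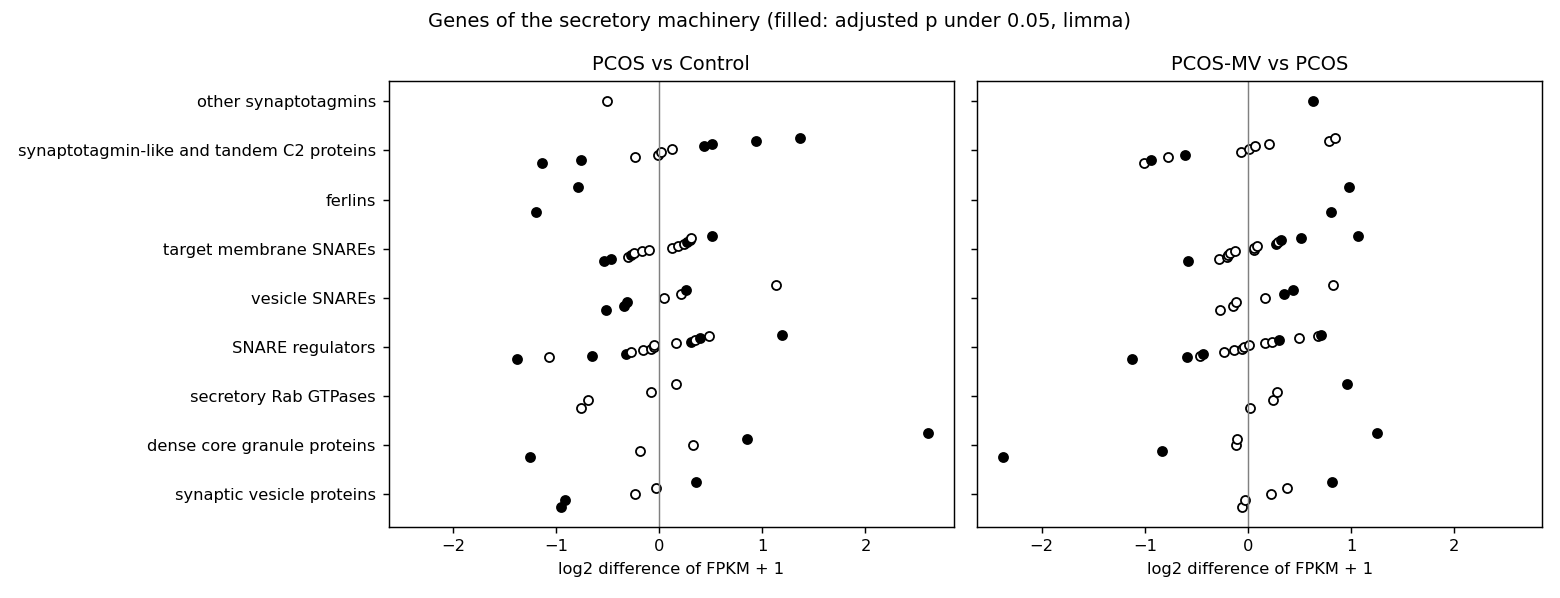
Differences on the log2(FPKM + 1) scale (horizontal axes) of the 63 tested genes of 9 lists of secretory proteins (rows), for PCOS vs Control on the left and PCOS-MV vs PCOS on the right. Each point is a gene, filled where the adjusted p was under 0.05 by limma. Filled points lie on both sides of 0 in 6 of the 9 lists on the left and in 3 on the right, and Scg2 among the dense core granule proteins is the farthest from 0 in both panels.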

How the data were processed

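The authors deposited 1 table of FPKM per gene for 12 libraries. The study's methods name HISAT2 and featureCounts, whereas the submitters' processing notes name STAR 2.5.1b and HTSeq 0.6.0, and the genome build is not given in the sources used here. The table repeats each gene on 26928 transcript lines, reduced to 19730 genes. It also holds 6 columns of the authors' own comparisons (log2 fold changes, p-values), which were not used. Reads could not be recovered from the values, so depth is unknown. Steps between low values placed the libraries at 0.917 to 1.12 times the depth of the first control library. Only 33% to 49.25% of the low values fitted such a step, against 10% by chance. Groups were compared in pairs, 4 against 4, with limma 3.58.1 (R 4.3.3, lmFit and eBayes with trend) on log2(FPKM + 1) over the 13430 genes averaging 1 FPKM or more, adjusted by Benjamini-Hochberg over all genes, with an exact two-sided permutation test for single genes. Other steps used Python 3.11.15 and pandas 2.3.3. The limma fit was tested on simulated data.

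Named genes were the 10 members, of each list the called genes (at most 3 largest rises and 3 largest falls per comparison), and the 5 genes most like Syt13 by each of 2 correlations, of which the first 4 are given and 1 item is not reported here. Of 200 listed symbols 9 were not found, and 1 was matched through RefSeq. The members and lists were chosen with earlier results of these data known. Alternatives covered the pseudocount, the filter, 1 model for 12 libraries, a 2-fold threshold, the replicate block, rescaling, the variance trend and leaving out libraries.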

Additional observations from a re-analysis of the deposited data

Results flagged for a closer look

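Among 63 groups of 4 values examined, 5 held a value far from the other 3, and chance gives about 3.15. Syt5 stood at 0.859 FPKM in the first PCOS library, with 0.536 to 0.539 FPKM in the other 3. Syt12 stood at 0.650 FPKM in the third PCOS library, with 0.415 to 0.423 FPKM in the others. Summed epithelium markers reached 289 FPKM in the third control library, with 35.7 to 54.9 FPKM in the others. Summed oocyte markers reached 53.8 FPKM in the fourth control library, with 33.2 to 36.3 FPKM in the others. Summed endothelial markers reached 105 FPKM in the third PCOS-MV library, with 79.3 to 83.1 FPKM in the others.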

How the results depend on the processing

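No difference of the 6 tested members changed sign under any alternative run. Between PCOS and control 3 members other than Syt13 passed, 1 with a 2-fold threshold, 2 with the replicate block and 3 to 4 when single libraries were left out. Between PCOS-MV and PCOS 1 passed, and 1 to 3 when single libraries were left out (3 without the third PCOS-MV library, when Syt5 and Syt11 joined Syt1). Between PCOS-MV and control 0 passed under every alternative run. A pseudocount of 0.1 FPKM moved the PCOS to control differences to 1.95 for Syt1, -1.45 for Syt5, -1.09 for Syt7 and -1.12 for Syt9. Over all genes, 3684 passed between PCOS and control and 907 with a 2-fold threshold, and 3448 and 751 between PCOS-MV and PCOS. Between PCOS-MV and control 1 gene passed, and 0 to 4 under the alternatives. Counted by gene, comparison and alternative run, the calls of the named list genes were kept in 673 cases. They were lost in 143 cases, with the 2-fold threshold among the alternatives.

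Replicate numbers did not pair the libraries, since deviations of same-numbered libraries correlated at -0.0534 to 0.216, over 0.1 in 4 of 12 pairs, and 4 of 12 libraries correlated best with their own number. With the replicate as a block, 2905, 3079 and 0 genes passed in the 3 comparisons, and the adjusted p of Syt1 between PCOS-MV and PCOS was 0.00477. Depth is unknown, so that members below 1 FPKM cannot be given a counting error.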
